A study of Homo sapiens with 8 samples.

Results

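Isolated open regions of untreated H1650 cells, those with no other accessible region within 100 kb on either side, are described here in 8 ATAC-seq libraries. ATAC-seq marks open chromatin by the insertion of sequencing adapters with a transposase, and H1650 is an established human non-small cell lung cancer line. The peaks of both untreated lists were merged wherever they overlapped or touched, which gave 39043 regions, of which 17444 were covered by a peak of each list. Of these shared regions, 866 (4.96%) lay more than 100 kb from every other merged region and are the isolated regions. The other 16578 shared regions, each with a neighbour within 100 kb, served for comparison. The members were chosen by their listing and spacing in the untreated lists, so untreated listing, spacing, width and fold are given as descriptions only.

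The groups had 2 libraries each. Untreated cells received no siRNA according to the labels. The transfected cells received 20 nmol/L of a non-targeting pool (siControl), of a mix of siRNAs within exon 11a of the hMENA transcript (siMena11a), or of a pool against all hMENA (siMena), with a lipid reagent. The protein hMENA, encoded by ENAH, is a regulator of the actin cytoskeleton, and hMENA11a is its epithelial isoform. The sources used here do not say whether replicates were separate cultures, so p-values measure only the spread between these libraries. All libraries come from 1 cell line.

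Accessible regions of a mammalian genome include promoters, enhancers, insulators and other sites where regulatory proteins displace nucleosomes. They cluster around active genes, while long stretches of closed chromatin, often poor in genes, separate the clusters. A site that is open alone within such a stretch can be a distant enhancer, a solitary promoter or a structural site. No annotation or sequence of hg19, the build of these coordinates, was used here, so genes, promoters and motifs at the regions were not analysed here.

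The lists differed in length far more than the groups did. Replicate 1 lists held 14678 to 35472 peaks, and the replicate 2 lists of transfected cells held 1020 to 5231. The genome-wide background, recovered from the deposited values as tags expected at any position, was 0.538 to 0.935 in the replicate 1 libraries. It was 1.09 in untreated replicate 2 and 2.27 to 2.88 in the other replicate 2 libraries. The short replicate 2 lists of transfected cells thus went with a high background. Among the replicate 1 lists this did not hold. The shortest, siMena with 14678 peaks, had a background of 0.725, below siControl (0.935) and siMena11a (0.881). Values are given for each replicate number.

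The isolated regions had ordinary dimensions and a somewhat high fold. Their width ran from 202 to 1555 bp with a median of 537.5 bp, beside 536 bp for the other shared regions. The authors' fold, the ratio of summit pileup to local background, had a median of 9.01 in untreated replicate 1 and 7.18 in replicate 2. The other shared regions had medians of 8.25 and 6.38. In tags at the summit the order was the opposite, with medians of 20 and 18 at the isolated regions and 21 and 20 at the others. The recovered local background was lower at the isolated regions, 1.30 against 1.64 tags in replicate 1 and 1.7 against 2.22 tags in replicate 2. Across the 866 regions the log2 folds of the replicates had a Pearson correlation of 0.50, and 0.51 across the other shared regions. This is a description across regions that share their libraries.

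The distance to the nearest neighbour had a median of 140 kb among the 861 isolated regions with a neighbour on the same sequence. It exceeded 200 kb at 229 of them, 500 kb at 25 and 1 Mb at 2. For 221 isolated regions the next region on at least 1 side was itself isolated, and for 23 this held on both sides. The longest run of consecutive isolated regions, with 5 members, covered 1.13 Mb at chr15:94663154-95790718. Runs of 4 lay at chr10:15413042-16859983 and chr5:20678891-21342319. Isolation did not require listing in both untreated lists. Of the 2453 merged regions more than 100 kb from any other, 35.3% were in both lists, beside 45.3% of the 36590 remaining merged regions. The 1587 isolated regions found in 1 untreated list only, 1339 of them in replicate 1, had a median width of 258 bp.

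The isolated regions closest to the limit of the rule were chr4:28289417-28289889, chr9:117670300-117670895 and chr2:173420284-173421262, with nearest gaps of 100.027, 100.065 and 100.153 kb. They were 473, 596 and 979 bp wide, with untreated folds from 8.22 to 11.0. The shared regions that missed it most narrowly were chr20:29901186-29901506, chr4:185089579-185089824 and chr1:81640421-81641128, with gaps of 99.918, 99.769 and 99.666 kb. They were 321, 246 and 708 bp wide, with untreated folds from 4.37 to 16.1.

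Isolated regions were unevenly spread over the chromosomes. Chromosome X held 62, which is 13.1% of its shared regions, followed by chromosome 13 with 10.3%, chromosome 4 with 8.29% and chromosome 6 with 7.81%. Chromosome 19 held 10, or 1.77% of its shared regions, chromosome 16 held 15 (2.18%) and chromosome 20 held 11 (2.32%). By number, chromosome 2 led with 81, followed by chromosome 4 with 76 and chromosome 6 with 68. The isolated share was lower on most chromosomes with more regions per Mb, but chromosome 21, among the sparse ones with 10.7 regions per Mb, had 4.17%. Between these measures Pearson's r was -0.88 and Spearman's rho -0.90 across 23 chromosomes, a description in which the same regions enter both axes. For isolated regions per Mb in place of the share they were -0.56 and -0.60. On chromosome Y 2 of 5 shared regions were isolated, and 5 members were the only region of an unplaced contig.

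**Figure D1:**
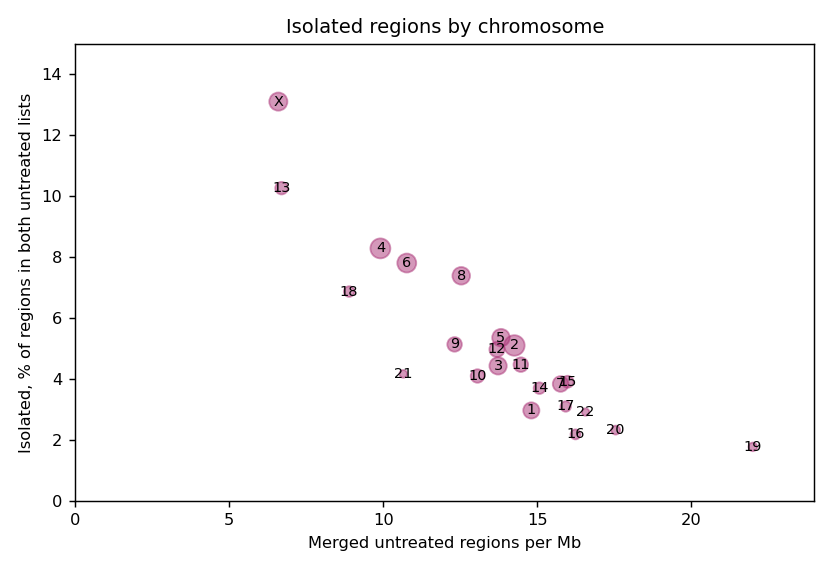
Share of regions in both untreated lists that were isolated (y axis, percent) against merged untreated regions per Mb (x axis), 1 circle per chromosome from 1 to 22 and X, with an area that grows with the number of isolated regions. Chromosomes X (13.1%) and 13 (10.3%) lie at the sparse, high end and chromosome 19 (1.77%) at the dense, low end.

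After transfection, most isolated regions were listed again in the replicate 1 libraries and few in the replicate 2 libraries. In siControl replicate 1, 781 of the 866 (90.2%, 95% exact Clopper-Pearson interval 88.0% to 92.1%) were listed, and 289 (33.4%, 30.2% to 36.6%) in replicate 2. In siMena11a the numbers were 823 (95%, 93.4% to 96.4%) and 162 (18.7%, 16.2% to 21.5%). In siMena they were 576 (66.5%, 63.3% to 69.7%) and 48 (5.54%, 4.11% to 7.28%). The order of the libraries was that of their list lengths within each replicate number. These intervals cover counting error over regions only. All 3 replicate 1 libraries listed 562 isolated regions (64.9%), beside 62.2% of all shared regions, and 557 (64.3%) were in none of the 3 replicate 2 libraries, beside 72.7%. Over all 17444 shared regions the share listed was 89.8% and 25.3% in siControl, 95.7% and 13.4% in siMena11a, and 63.2% and 3.53% in siMena.

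The listed share of isolated regions stood above that of the other shared regions in each replicate 2 library, with 33.4% against 24.9% in siControl, 18.7% against 13.1% in siMena11a and 5.54% against 3.43% in siMena. In replicate 1 the differences were 0.379 percentage points in siControl, -0.658 in siMena11a and 3.45 in siMena. The mean difference over the 6 transfected libraries was 3.22 ± 3.39 percentage points (SD, n = 6), positive in 5 of 6 libraries (two-sided exact permutation p = 0.0938, 0.188 after Benjamini-Hochberg adjustment over the 4 main tests). It did not pass the threshold of 0.05. The mean was 1.06 points in replicate 1 and 5.39 points in replicate 2. Tests under alternative settings, such as bins of fold or a replicate block, are not among the 4.

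**Figure D2:**
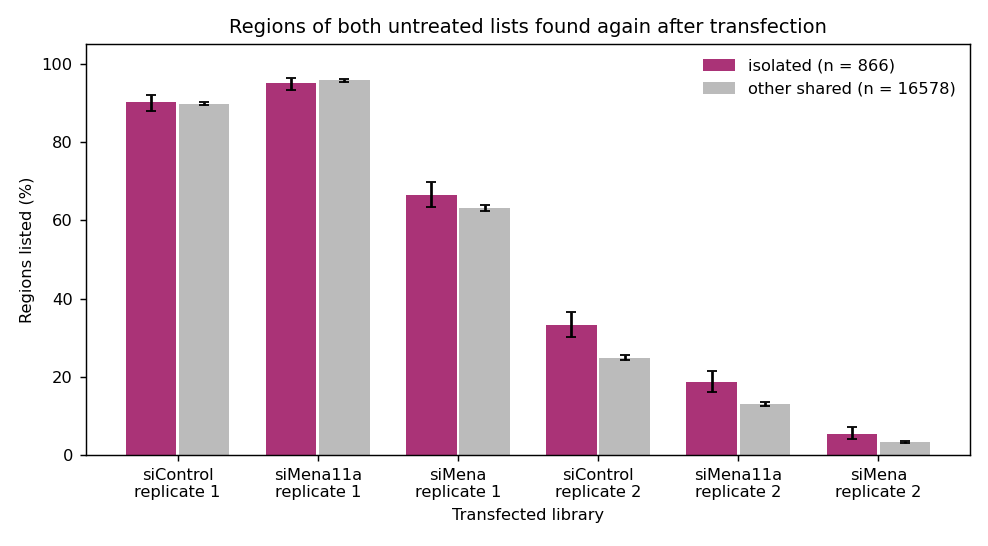
Percent of regions listed in each transfected library (y axis) for the 866 isolated and the 16578 other shared regions, with 95% exact intervals over regions as error bars. The bars of the 2 sets are close in replicate 1, and the isolated regions stand above the others in all 3 replicate 2 libraries.

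Among listed regions the median fold was higher at isolated regions in each transfected library. The median fold of the isolated regions was 8.37 and 5.67 in the siControl replicates, 8.92 and 5.40 in siMena11a and 6.96 and 4.77 in siMena. The other shared regions had medians of 7.32 and 5.00, 8.05 and 4.70, and 6.30 and 4.44. On the log2 scale the difference was 0.16 ± 0.04 (SD, n = 6), positive in 6 of 6 libraries (two-sided exact permutation p = 0.0312, the smallest that 6 libraries can give, and 0.125 after adjustment over the 4 tests). It thus did not pass after adjustment. All 6 libraries were read at the same regions, so the test covers the spread between libraries. The rule chose regions with empty untreated flanks, and the local background enters the fold. The sign of this difference is therefore not independent of the rule, and how far was not tested.

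The higher fold went with a lower local background, at a similar number of tags. The median local background at listed isolated and other regions was 1.74 and 2.28 tags in siControl replicate 1, 1.90 and 2.50 in siMena11a replicate 1, and 1.26 and 1.66 in siMena replicate 1. In replicate 2 it was 2.74 and 3.22, 3.08 and 3.56, and 3.25 and 3.95 tags. Median summit tags were lower at the isolated regions in the replicate 1 libraries, at 22 against 23 (siControl), 26 against 28 (siMena11a) and 15 against 16 (siMena). They were 21 against 21, 21.5 against 21 and 22 against 22 in replicate 2. The local background equalled the genome-wide background at 31.8%, 22.8% and 39.6% of the listed isolated regions in the siControl, siMena11a and siMena replicate 2 libraries, and at 13.7%, 12% and 12.7% of the others. The part of the local background in the listing of isolated regions was not tested.

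Fold and listing also varied with spacing among the shared regions on both sides of the 100 kb limit. In siControl replicate 2 the listed share was 22.5% for shared regions with a neighbour within 5 kb, 31.0% at 50 to 100 kb, 32.4% at 100 to 200 kb and 35.9% beyond 200 kb, a class of 234 that includes the 5 regions alone on a contig. In siMena11a replicate 2 the same classes had 10.6%, 18.8%, 18.7% and 18.8%, and in siMena replicate 2 2.98%, 4.10%, 5.06% and 6.84%. In siMena replicate 1 the share was 55.9% within 5 kb and between 62.6% and 67.5% in all wider classes. The share in siControl replicate 1 stayed between 88.4% and 91.0% and in siMena11a replicate 1 between 94.0% and 96.3%. Median fold was highest beyond 200 kb in all 6 libraries, at 9.09 in siMena11a replicate 1 against 6.87 within 5 kb. In the replicate 2 libraries the class beyond 200 kb reached 6.15 (siControl), 6.11 (siMena11a) and 6.06 (siMena), from 84, 44 and 16 listed regions. In siMena replicate 2, leaving out that thin class, the highest median was 4.63.

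**Figure D3:**
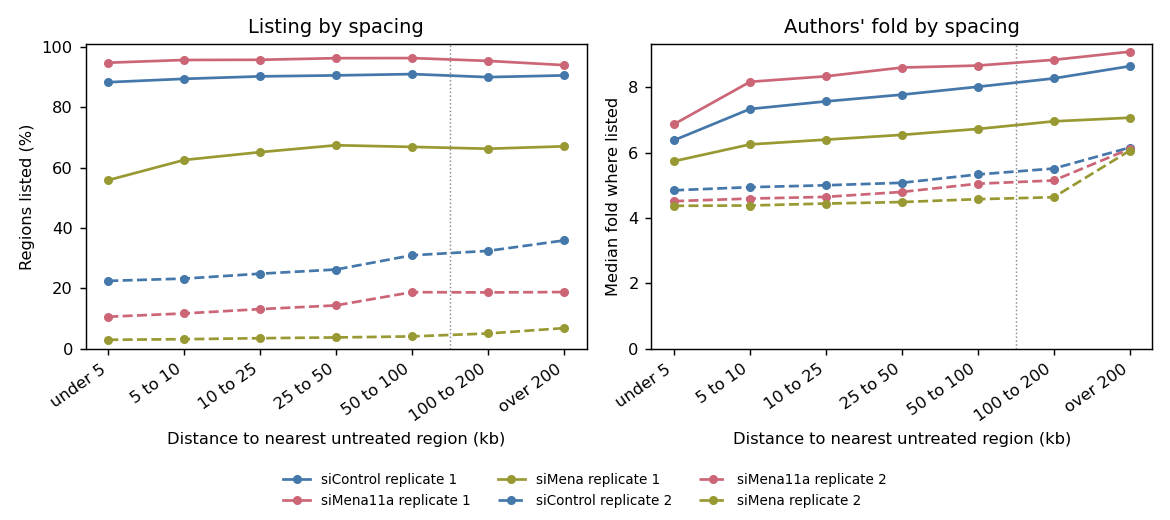
Percent of shared regions listed (left) and median authors' fold where listed (right) in the 6 transfected libraries, by distance to the nearest untreated region in kb (x axis, classes of unequal width). Solid lines are replicate 1, dashed lines replicate 2, and the dotted vertical line is the 100 kb limit of isolation. Fold is highest in the class beyond 200 kb in every library, where siMena replicate 2 has 16 listed regions.

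The difference in listing was also taken at a like untreated fold. Shared regions were put into 3 bins of the lower of their untreated folds. The bin over 8 held 30.6% of the isolated and 20.1% of the other regions, and the bin under 5 held 12% and 23.2%. In the replicate 1 libraries the listed share of the isolated regions was below that of the others in 9 of 9 comparisons, with the widest gap in siMena11a under a fold of 5 (86.5% against 91.3%). In the replicate 2 libraries it was above in 8 of 9. The largest of these differences was in siControl over a fold of 8, with 69.4% against 64.6%. Averaged over bins and libraries the difference was -0.11 points, positive in 3 of 6 libraries (two-sided exact permutation p = 0.844). This average joins opposite signs in replicate 1 and replicate 2, so it does not show that the shares were equal. The local background enters the untreated fold, so regions of like fold need not have like tags. In 3 bins of width, the listed share of the isolated regions was above that of the others in 6 of 9 comparisons in replicate 1 and in 8 of 9 in replicate 2. Over 700 bp it was 61.2% against 48.2% in siControl replicate 2 and 39.6% against 30.9% in siMena11a replicate 2. The differences within width were not tested.

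Isolated regions followed the overall difference between list lengths in the comparisons of siRNAs, and no such comparison passed a test. The mean share of isolated regions listed was 61.8% ± 40.2 (SD, n = 2) in siControl, 56.9% ± 54.0 in siMena11a and 36% ± 43.1 in siMena. For siMena11a against siControl the difference was -4.91 points (two-sided exact permutation p = 1.0). It was 4.85 points within replicate 1 and -14.7 within replicate 2, and the other shared regions moved by 5.89 and -11.8 points. For siMena against siControl the difference was -25.8 points (two-sided exact permutation p = 0.667), with -23.7 points within replicate 1 and -27.8 within replicate 2. The other shared regions moved by -26.7 and -21.5 points. The smallest p that such a comparison of 4 libraries can give is 0.3333, and list length and siRNA cannot be told apart.

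Few isolated regions separated the siRNA groups, and 83 (9.58%) were in neither siControl list, beside 9.83% of all shared regions. A region at chr5:37533974-37534367 was in both siMena11a lists and neither siControl list, 1 of 866 beside 0.0229% of all shared regions. Its folds were 5.95 and 7.84 in untreated, and 7.02 and 3.96 in siMena11a cells. It was in neither siMena list. The opposite pattern was shown by 1 of 866 isolated regions, beside 0.0516% of all shared regions. It was at chr4:67044727-67045191, with untreated folds of 7.05 and 4.31 and siControl folds of 10.0 and 5.82. It was also in siMena replicate 1, with a fold of 6.38.

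For siMena, 21 isolated regions (2.42%) were in both siControl lists and neither siMena list, beside 2.4% of all shared regions. The leading ones, ranked by the percentile of the authors' score within each list, were at chr1:217202586-217203055, chr7:122319300-122319671, chr2:139402362-139402796, chr1:199241785-199242266 and chr15:95790316-95790718. Their siControl folds ran from 6.56 to 10.5 in replicate 1 and from 5.24 to 6.73 in replicate 2, and all 5 were in siMena11a replicate 1. The last of them ends the run of 5 consecutive isolated regions on chromosome 15. The opposite pattern had 0 of 866 isolated regions, where a limit of 3 counts allows a share of up to 0.346%, beside 0% of all shared regions. The region on chromosome 5 and another at chr7:40756840-40757188 were in both siMena11a lists and neither siMena list, which is 0.231% beside 0.539% of all shared regions. The chromosome 7 region had folds of 12.3 and 5.41 in siMena11a and 9.23 in siControl replicate 1.

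Of the 866 isolated regions, 280 (32.3%) were listed in the 3 transfected replicate 1 libraries and in no other transfected library, beside 38.3% of the other shared regions. A further 178 (20.6%) were listed in siControl and siMena11a replicate 1 alone, beside 23.5% of the others. All 6 transfected libraries listed 42 (4.85%, exact interval 3.52% to 6.5%), beside 3.1% of all shared regions. None of the 6 listed 22 (2.54%), beside 2.53% of all shared regions. Width and fold were larger with the number of transfected libraries that listed a region, from medians of 313.5 bp and a lower untreated fold of 5.23 at the 22 regions to 845.5 bp and 10.0 at the 42. The spacing did not follow the same order, with median nearest gaps of 142 kb and 136 kb. On chromosome X, 0 of 62 isolated regions were in all 6, and 2 of 411 (0.487%) other shared regions were. A limit of 3 counts allows a share of up to 4.84% there, near the 4.85% of all isolated regions. Chromosomes 12, 13, 15, 16, 17, 19, 22 and Y, with fewer isolated regions each, also had 0.

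**Figure D4:**
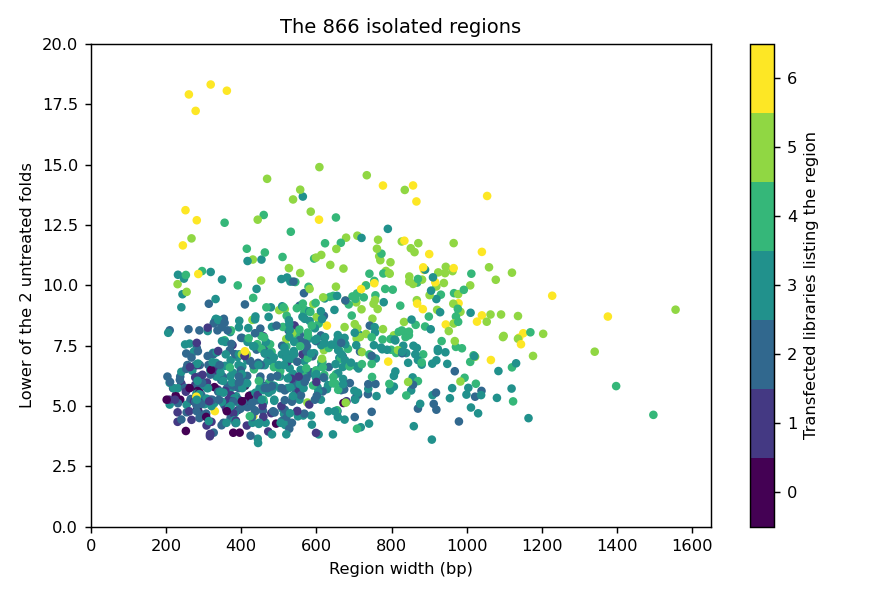
The 866 isolated regions by width in bp (x axis) and the lower of the untreated folds (y axis), coloured by the number of transfected libraries that listed them. Of the 42 regions in all 6, 30 are above 600 bp wide, 2 are 410 and 432 bp, and 10 are under 400 bp, with lower folds from 4.79 to 18.3.

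The 4 isolated regions with the highest lower untreated fold were narrow. Across all 866 the wider regions tended to have the higher lower untreated fold, with a Spearman correlation of 0.33. The highest lower untreated fold belonged to a region of 319 bp at chr2:50816231-50816549, 424 kb from its nearest neighbour. Its folds were 19.7 and 18.3 in untreated, 19.2 and 9.94 in siControl, 18.4 and 10.0 in siMena11a and 17.5 and 8.51 in siMena libraries. A region of 261 bp at chr9:83180524-83180784, 323 kb from its nearest neighbour, had the highest fold of the isolated set, 24.2 in untreated replicate 1. Its other folds were 17.9 in untreated replicate 2, 21.5 and 11.7 in siControl, 21.1 and 11.9 in siMena11a and 20.2 and 11.9 in siMena. Regions of 362 bp at chr3:68708118-68708479 and 279 bp at chr8:20408718-20408996 had untreated folds of 17.2 to 20.4, and these 4 regions were in all 8 lists. The next, at chr13:87776244-87776851, was 608 bp wide, had untreated folds of 17.2 and 14.9 and was absent from siMena replicate 2 alone. The fold was lower in each transfected replicate 2 library than in replicate 1 of its group wherever both listed these 5 regions.

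The 42 isolated regions in all 8 lists were divided into 3 classes by their tags at the summit. This division, by tags in siMena replicate 2 over untreated replicate 1, was chosen after the values were seen. It has no test, and tags are not scaled for depth. Between these libraries the genome-wide background, the tags expected at any position, rose 5.34 times. Equal tags in both libraries are thus a fall relative to that background, and the classes do not measure loss, constancy or gain of accessibility. All 42 had to pass the threshold of the siMena replicate 2 list, which held 1020 peaks, and their lowest summit there had 14 tags. A region that fell below that threshold could not be among them, which bears most on regions with few untreated tags. The classes and their widths can thus be set in part by this choice, and how far was not tested.

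At 28 of the 42 regions tags in siMena replicate 2 were below 0.5 times those of untreated replicate 1. These were broad, from 607 to 1375 bp. Their median was 61.5 and 48.5 tags in untreated, 56 and 32 in siControl, 68.5 and 29.5 in siMena11a and 32 and 20.5 in siMena. The region of 1227 bp at chr3:28389853-28391079 had 57 and 56 tags in untreated, 52 and 36 in siControl, 57 and 32 in siMena11a and 38 and 23 in siMena. At this region replicate 2 of each transfected group had fewer tags than replicate 1.

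At 9 regions the ratio lay between 0.5 and 2, and 8 of these were under 400 bp wide. Their median tags ran only from 31 to 37 over the 8 libraries. The region of 245 bp at chr1:5910258-5910502 had 37 and 37 tags in untreated, 36 and 39 in siControl, 42 and 39 in siMena11a and 36 and 40 in siMena. Its highest value was 1.17 times its lowest. A region of 286 bp at chr5:8620932-8621217 had 35 and 39, 36 and 37, 33 and 36, and 31 and 35 tags in the same order. At the latter region replicate 2 had 1 to 4 tags more than replicate 1 in each group, and siMena replicate 1 had the lowest value. The fold of the region on chromosome 1 was 16.1 in untreated replicate 1 and 5.38 in siMena replicate 2.

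At 5 regions the ratio was above 2, and tags were highest in the transfected replicate 2 libraries. Only the region on chromosome 20, with a ratio of 9.33, exceeded the rise of 5.34 times in the genome-wide background. A region of 432 bp at chr20:46523498-46523929 had 9 and 21 tags in untreated, 35 and 76 in siControl, 22 and 89 in siMena11a and 23 and 84 in siMena. A region of 628 bp at chr2:109815741-109816368 had 21 and 54, 50 and 90, 41 and 106, and 33 and 98 tags in the same order. The other regions of this kind were at chr2:3184228-3185018, chr8:142503048-142503328 and chr5:3660004-3660333. At the first of these siMena replicate 2 had 91 tags and untreated replicate 1 had 18. Replicate 2 of each transfected group lay above replicate 1 of the same group at all 5. The other shared regions in all 8 lists divided in a like way, with 354 (71.1%), 90 (18.1%) and 54 (10.8%) of 498, beside 66.7%, 21.4% and 11.9% of the 42. Of those 90, 26 were under 400 bp wide, beside 8 of the 9.

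**Figure D5:**
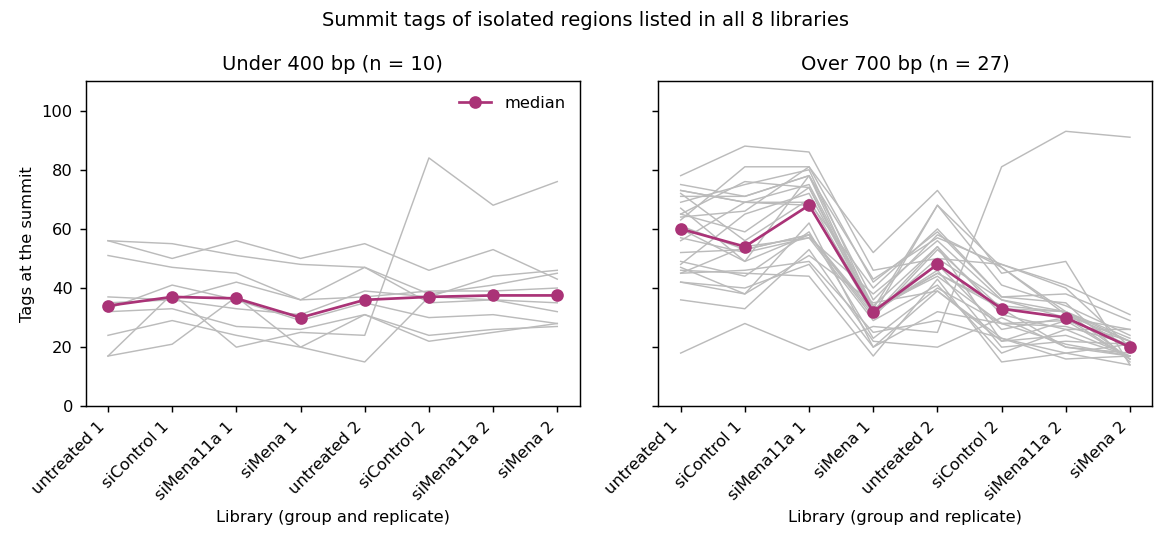
Tags at the summit (y axis, not scaled for depth) in each of the 8 libraries for isolated regions in all 8 lists, under 400 bp wide (left, n = 10) and over 700 bp wide (right, n = 27). Grey lines join the values of 1 region and carry no order, and points are medians. The median of the narrow regions lies between 30 and 37.5 tags. That of the broad ones falls from 60 in untreated replicate 1 to 20 in siMena replicate 2. Single regions differ from these medians. Between the same libraries chr8:142503048-142503328 and chr5:3660004-3660333 (left) rise from 17 tags to 76 and 46, and chr2:3184228-3185018 (right) rises from 18 to 91.

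Listing in all 6 transfected libraries varied with width. Of the 242 isolated regions under 400 bp, 10 (4.13%) were in all 6 transfected lists, and of the 4282 other shared regions of that width 46 (1.07%). Of the 379 isolated regions from 400 to 700 bp, 5 (1.32%) were in all 6, against 1.34% of the others. Of the 245 over 700 bp, 27 (11.0%) were, against 8.29% of the others. The difference between these widths was not tested.

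The 22 isolated regions in none of the transfected lists were 202 to 672 bp wide. The leading ones by lower untreated fold were at chr6:133930821-133931140, with folds of 6.5 and 7.18, and chr13:101910393-101910802, with 5.85 and 7.55. Regions at chr11:88831069-88831397, chr2:17688057-17688315 and chrX:132678198-132678460 came next, with folds from 5.74 to 7.81. These 5 regions had 8 to 15 summit tags in the untreated libraries. The narrowest isolated region, 202 bp at chr8:70015187-70015388, was also in none, with folds of 5.85 and 5.26. The widest, 1555 bp at chr2:136288027-136289581 with 3 summits in each untreated list, was in all transfected libraries but siMena replicate 2. The other broad regions, of 1496 bp at chr2:149401661-149403156 and 1397 bp at chr4:121843003-121844399, were each in 4.

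Chromosome 4 held the 3 most remote regions. The largest nearest gap, 1208 kb, belonged to a region of 1169 bp at chr4:36245459-36246627, with folds of 9.33 and 8.06 in untreated, 10.1 and 6.10 in siControl, 9.02 in siMena11a replicate 1 and 5.68 in siMena replicate 1. It was followed by regions on the same chromosome from 63461020 to 63461638 (1127 kb) and from 29425824 to 29426119 (962 kb). The first of these had untreated folds of 7.65 and 6.19 and was listed in siControl and siMena11a replicate 1, with 7.75 and 7.44. The second had untreated folds of 5.20 and 5.74 and was in siMena11a replicate 1 alone, with 4.78. Regions at chr3:163208056-163208532 and chr8:93115519-93115977 lay 793 and 784 kb from a neighbour. On chromosome 3 the fold was 7.56 and 8.96 in untreated, 11.2 and 3.98 in siControl, and 10.6 and 7.39 in replicate 1 of siMena11a and siMena.

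The flanks of the isolated regions also held few peaks after transfection. No transfected library listed a peak within 100 kb of 590 isolated regions (68.1%). The flanks covered 170 Mb and held 0.636 peaks per Mb in siControl replicate 1, against 9.08 over the whole list, and 1.44 against 11.8 in siMena11a replicate 1. In siMena replicate 1 the densities were 0.130 and 4.88. In replicate 2 they were 0.147 and 1.74 (siControl), 0.112 and 0.941 (siMena11a) and 0.0883 and 0.339 (siMena). The flank density was thus 0.0265 to 0.260 times that of the list, with the extremes in the siMena libraries. The siMena11a replicate 1 list placed a peak near 208 isolated regions and the siControl replicate 1 list near 102. The median fold of flank peaks was below that of the whole list in 5 libraries, from 5.34 against 6.57 in siMena11a replicate 1 to 4.52 against 4.64 in siMena11a replicate 2. In siMena replicate 2 it was 4.42 against 4.29. The flanks were chosen as empty in the untreated lists, so this is a description.

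The region on contig Un_gl000227, from 73657 to 74066, was the only isolated region outside the assembled chromosomes in all 8 lists. Its folds were 8.57 and 7.27 in untreated, 9.91 and 7.5 in siControl, 11.5 and 7.14 in siMena11a and 10.6 and 6.19 in siMena. The other contig members, each the only untreated region of its contig, were in 3 to 5 transfected libraries. A contig can be shorter than the distance of the rule, so isolation there has another meaning than on a chromosome.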

How the data were processed

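Peak lists of 8 libraries were used as the authors deposited them, 1 per library. FastQC 0.11.5, Bowtie2 2.3.4.2, SAMtools 1.7, MACS2 2.2.5 and hg19 are named in the submitters' processing notes. The labels give total RNA as molecule and a transcriptomic source, while the series title names ATAC-seq, as which the lists were read. Trimming, duplicates and the transposase offset are not given in the sources used here. The deposited score is 10 times −log10 q, rounded down, in at least 99.98% of rows. The fold (ratio) of summit over local background, the −log10 p and the −log10 q are the authors' deposited values. In the fold, 1 tag is added to both the summit and the background. The lists end near a q of 0.01. Folds are set side by side between libraries as a description only.

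A peak was 1 distinct interval with the values of its highest-fold summit. Whole summit tags and local background were recovered from fold and −log10 p by the Poisson formula, within 0.001 of the deposited value for 100% of rows. The lowest local background of a list is its genome-wide background. Any overlap of 1 bp or more with a peak counted as listing. Coordinates are hg19, counted from 1.

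Two-sided exact permutation tests took libraries as units, by sign flips over 6 libraries or by exchange of 2 against 2. The code ran on matplotlib 3.10.9, SciPy 1.17.1, pandas 2.3.3, numpy 2.4.6 and Python 3.11.15 and was tested on simulated data. Regions were named by rule: the highest lower untreated fold, the largest gaps, those in all or none of the transfected lists, those separating siRNA groups, those at the limit and the extremes of width. The regions shown for their tags and those on contigs were chosen after their values were seen. The members and rules were chosen with earlier results of these data known.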

Additional observations from a re-analysis of the deposited data

How the results depend on the processing

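The set depends on its rule. A distance of 50 or 200 kb gave 2673 or 234 isolated regions, and the rule applied to 1 untreated list (without replicate 1 or 2) gave 2771 or 2619. With a score of at least 87 in every list there were 1183, more than the 866. The number in all 6 transfected lists, 42, became 112 and 14 at these distances and 24 of the 1183 at the stricter score. It was 16 with listing defined by 50% coverage and 16 with transfected lists shortened to 1020 peaks. Leaving out 1 transfected library, and counting listing in all that remained, gave 42 to 143, with 143 without siMena replicate 2. In the sets of 2771 and 2619 regions without untreated replicate 1 or 2, 97 and 51 were in all 6. The listing difference between isolated and other regions turned to -0.11 points within bins of fold, an average over opposite signs in replicate 1 and replicate 2. Leaving out 1 library gave -4.25 to 3.999 points, negative only without untreated replicate 2. The log2 fold difference stayed positive in all 15 alternatives, from 0.10 to 0.28. Leaving out 1 transfected library could not change its sign, since each of the 6 had a positive difference. All alternatives also keep a rule that chooses empty untreated flanks, so the sign is not independent of the rule in any of them. Leaving out 1 library moved siMena11a minus siControl from -43.1 to 33.3 points, positive without siControl replicate 1 (23.5), siMena11a replicate 2 (33.3) or untreated replicate 2 (1.43). It moved siMena minus siControl from -56.2 to 4.73 points, positive without siControl replicate 1 (2.66) or siMena replicate 2 (4.73). In shortened lists these differences were -1.10 and -2.48 points. The libraries share only a replicate number. With a replicate block the differences were again -4.91 (exact p = 1.0) and -25.8 points (exact p = 0.5, the smallest possible there), and the correlation of deviations from group means was 0.44 for siMena11a and 0.05 for siMena with siControl over all shared regions. No adjusted p passed 0.05 in any setting, though the unadjusted exact p of the listing difference was 0.0312 at 50 kb and in shortened lists. The files give no read totals, and a region absent from a short list can be below its threshold without being closed.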
